A study of Glycine max with 12 samples.

Results

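The MADS-box genes APETALA1 (AP1) and SUPPRESSOR OF OVEREXPRESSION OF CO1 (SOC1) were described in soybean leaves through 6 loci, AP1a to AP1d and SOC1a and SOC1b. The members were taken by identifier and not by a rule on measured values, although earlier results of these data were known when they were chosen. AP1a was Glyma.16G091300 on chromosome 16, AP1b was Glyma.08G269800 on chromosome 8, AP1c was Glyma.01G064200 on chromosome 1 and AP1d was Glyma.02G121600 on chromosome 2. SOC1a was Glyma.18G224500 on chromosome 18 and SOC1b was Glyma.09G266200 on chromosome 9. The 6 members stood among 52660 loci with counts, and they held 13 of the 84782 transcript models. The chromosomes were read from the identifiers, which follow the soybean assembly Wm82.a2.v1, and coordinates and sequences of the loci were not used here.

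RNA of the third leaf was sequenced from the transgenic line GmNAC81-3 and from the cultivar BR16 in 12 libraries, 3 for each of 4 groups. The groups were GmNAC81-3 V3 and BR16 V3, young leaves of vegetative plants at 20 days, and GmNAC81-3 R6 and BR16 R6, leaves of plants at the full seed stage at 80 days. GmNAC81-3 is a BR16 plant line that carries GmNAC81, a NAC transcription factor of a cell death pathway, under the constitutive 35S promoter, and BR16 is its untransformed background. All plants grew under normal conditions. GmNAC81-3 is 1 line, so an effect of the transgene and an effect of the line cannot be told apart. The study's methods name separate plants as replicates. V3 and R6 libraries came from different sequencing sets, and for this reason leaf age cannot be told apart from the set.

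In Arabidopsis, SOC1 integrates signals of day length, temperature and age at the shoot apex and promotes the change to flowering. AP1 acts later, giving young floral meristems their identity and sharing in the formation of sepals and petals. The FT protein made in leaves travels to the apex and, with its partner FD, raises both genes there. SOC1 is also known to be expressed in leaves, where AP1 is usually low. Soybean carries several copies of each gene after whole-genome duplications, which is why the members come in sets of near copies.

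The GmNAC81 counts, which included the transgene terminator entry, ran from 33.4 to 184 counts per 1000000 counts (CPM) in GmNAC81-3 V3, against 3.58 to 7.26 CPM in BR16 V3. At R6 they ran from 46.6 to 69.1 CPM in GmNAC81-3 and from 11.3 to 60.7 CPM in BR16, so that the genotypes overlapped. Libraries held 42.8 to 78.0 M counts (1 M is 1000000), and 74.1% to 84.9% of counts between 1 and 49 were even, so a fragment was mostly counted as 2. CPM was computed with library sizes scaled by TMM, whose factors were 0.498 to 0.657 in GmNAC81-3 V3 and 0.931 to 1.45 in the other 9 libraries. The 3 loci with the most counts held 44.1% to 58.5% of all counts in GmNAC81-3 V3, against 32.1% to 38.5% in BR16 V3. As a check of the labelled tissue, the 4 rubisco activase loci (RCA, the enzyme that keeps rubisco active in leaves) summed to 15720 to 19040 CPM in GmNAC81-3 V3, against 5169 to 11010 CPM in BR16 V3. At R6 they summed to 456.5 to 776.3 CPM in GmNAC81-3 and to 436.3 to 1178 CPM in BR16. Markers of flowers and of the shoot apex were not looked up here. For bulk leaf RNA, fewer cells of a type and less RNA per cell cannot be told apart.

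The AP1 genes were at the limit of detection in leaves. Of the 48 counts of the 4 AP1 loci in 12 libraries, 25 were 0, 18 were 1 to 3 and 5 were above 3. The highest count was 6, and the 4 loci together had 62 counts over all libraries. No AP1 locus passed the filter on low counts, whereas both SOC1 loci did, so that 2 of 6 members were tested.

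AP1a had 0 counts in the 3 GmNAC81-3 V3 libraries, against 2, 0 and 0 counts in BR16 V3. At R6 it had 6, 2 and 2 counts in GmNAC81-3, against 2, 6 and 2 counts in BR16. Each R6 library thus held some AP1a counts, but only 1 library of each genotype held more than 3. The AP1a values of the genotypes overlapped at R6.

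AP1b had 0 counts in the 3 GmNAC81-3 V3 libraries, against 2 counts in each of the 3 BR16 V3 libraries. At R6 it had 2, 0 and 1 counts in GmNAC81-3, against 6, 3 and 1 counts in BR16. All V3 values lay at or under 3 counts, so that no fold is given at V3. The GmNAC81-3 V3 libraries also had the smallest scaled sizes, where 3 counts were worth 0.0991 to 0.122 CPM, against 0.0386 to 0.0512 CPM in BR16 V3.

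AP1c had 0, 2 and 0 counts in GmNAC81-3 V3, against 0, 0 and 1 counts in BR16 V3. At R6 it had 3, 0 and 5 counts in GmNAC81-3, against 4, 3 and 1 counts in BR16. AP1d had 2 counts in GmNAC81-3 R6 replicate 3 and 0 counts in the other 11 libraries. AP1d was thus the member with the fewest counts. A value of 0 in a library allows up to 3 counts if counts are independent, and more where a fragment was counted as 2.

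**Figure D1:**
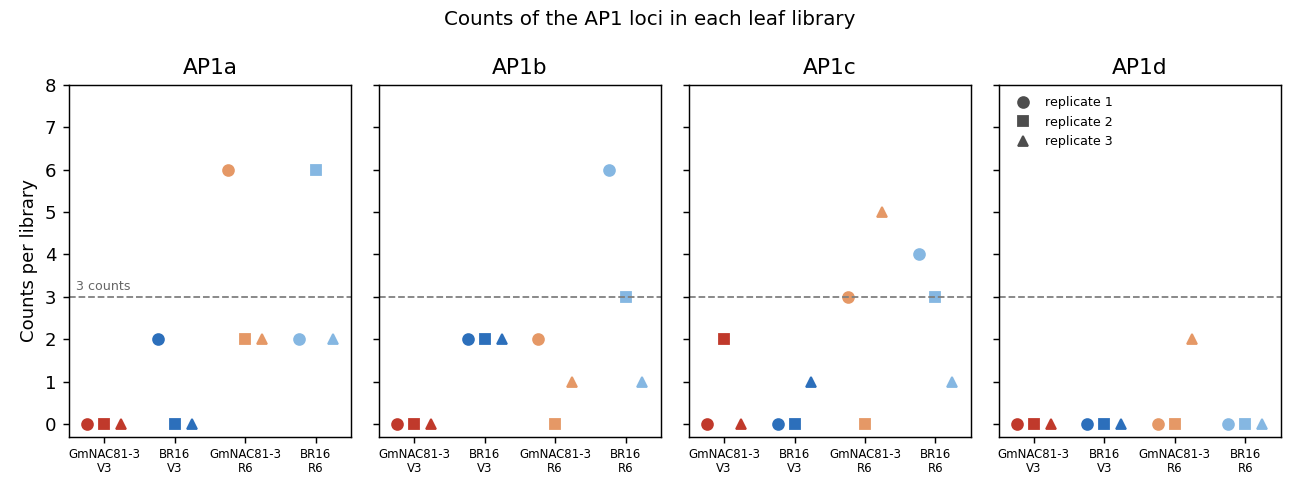
Counts of AP1a, AP1b, AP1c and AP1d in each of 12 leaf libraries (vertical axis, deposited counts), by group, with 1 point per library and its shape giving the replicate number. The dashed line marks 3 counts, above which 5 of the 48 points lie, all of them in R6 leaves.

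Summed over the 4 loci, AP1 had 0, 2 and 0 counts in GmNAC81-3 V3, against 4, 2 and 3 counts in BR16 V3. At R6 the sums were 11, 2 and 10 counts in GmNAC81-3, against 12, 12 and 4 counts in BR16. All 5 counts above 3 came from R6 leaves, and 17 of 24 values at R6 were above 0, against 6 of 24 values at V3. The R6 libraries had larger scaled sizes, with 60.4 to 113 M counts, against 24.6 to 77.7 M counts at V3.

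Pooled over the libraries of a group, the summed AP1 level was 0.106 CPM in GmNAC81-3 R6, with a 95% Poisson interval of 0.0671 to 0.159 CPM. It was 0.103 CPM in BR16 R6, with an interval of 0.0682 to 0.148 CPM. In GmNAC81-3 V3 it was 0.0241 CPM (0.00292 to 0.0870 CPM), and in BR16 V3 it was 0.0456 CPM (0.0208 to 0.0865 CPM). The intervals cover counting error only, and are too narrow where a fragment was counted as 2. The intervals of the genotypes overlapped at both stages, and those of the stages overlapped in each genotype.

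When the 4 AP1 loci were fitted without a filter, none passed edgeR's quasi-likelihood test, adjusted by the Benjamini-Hochberg method in any of 5 contrasts. Their lowest unadjusted p was 0.0701 and their lowest adjusted p was 0.153, for AP1a between GmNAC81-3 R6 and GmNAC81-3 V3. No difference of a single AP1 locus between genotypes or stages was thus detected at this depth, and the summed AP1 level was not tested. The share of each AP1 locus in the AP1 counts was not computed, since no group had 20 AP1 counts or more in every library.

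SOC1a was detected in every library. It had 408, 369 and 446 counts in GmNAC81-3 V3, against 848, 995 and 939 counts in BR16 V3. At R6 it had 691, 912 and 768 counts in GmNAC81-3, against 1244, 805 and 896 counts in BR16.

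The SOC1a level was 13.5, 14.99 and 15.9 CPM in GmNAC81-3 V3, against 14.5, 12.8 and 15.4 CPM in BR16 V3. It was 11.4, 9.68 and 12.3 CPM in GmNAC81-3 R6, against 11.05, 10.97 and 10.3 CPM in BR16 R6. With these TMM sizes every V3 library lay above every R6 library, and the genotypes overlapped at each stage. The coefficient of variation of SOC1a over the 12 libraries was 16.5%, which 6.88% of all tested loci matched or undercut, and the median locus had 46.5%.

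SOC1b was also detected in every library. It had 309, 239 and 367 counts in GmNAC81-3 V3, against 401, 425 and 319 counts in BR16 V3. At R6 it had 340, 535 and 322 counts in GmNAC81-3, against 658, 470 and 384 counts in BR16.

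The SOC1b level was 10.2, 9.71 and 13.1 CPM in GmNAC81-3 V3, against 6.85, 5.47 and 5.22 CPM in BR16 V3. It was 5.63, 5.68 and 5.14 CPM in GmNAC81-3 R6, against 5.84, 6.41 and 4.43 CPM in BR16 R6. With TMM sizes the 3 GmNAC81-3 V3 libraries stood above all 9 others, which overlapped with each other. Its coefficient of variation over the 12 libraries was 37.5%, at percentile 38.9 of all tested loci.

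**Figure D2:**
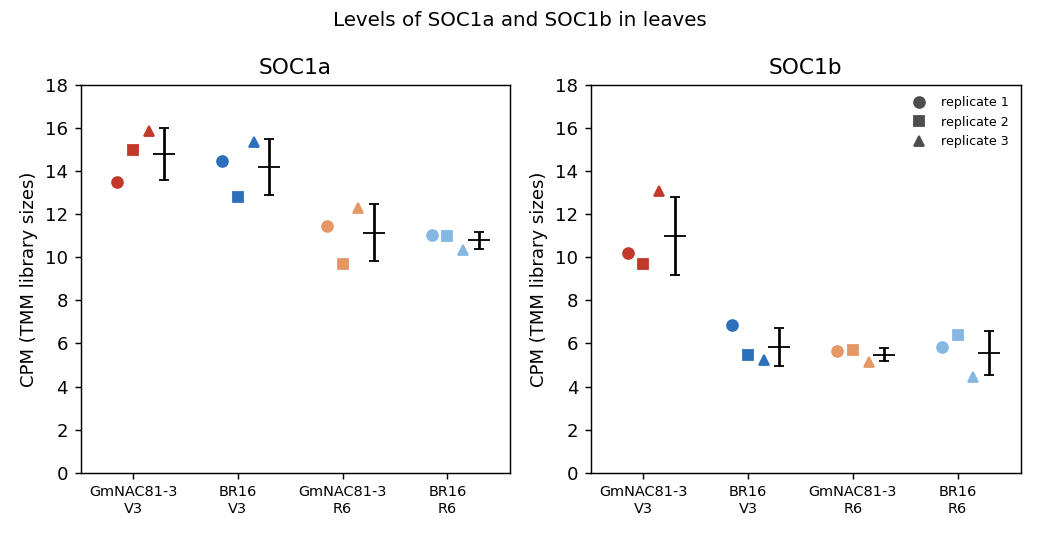
Levels of SOC1a (left) and SOC1b (right) in each leaf library (vertical axis, CPM with TMM library sizes), by group, with 1 point per library and the group mean and SD beside it (n = 3). SOC1a lies higher in all V3 than in all R6 libraries, and SOC1b lies highest in the 3 GmNAC81-3 V3 libraries, at 9.71 to 13.1 CPM.

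At V3, the comparison of GmNAC81-3 with BR16 asked whether the transgene line differed before the leaf aged. SOC1b averaged 10.99 ± 1.81 CPM in GmNAC81-3 V3 and 5.84 ± 0.877 CPM in BR16 V3 (SD, n = 3 each). This was a log2 fold change of 0.91 with an SE of 0.194 and a 95% interval of 0.49 to 1.34, and SOC1b was higher in all 3 libraries, a separation that 24.0% of all tested loci showed in either direction. The adjusted p was 0.0279 by edgeR's quasi-likelihood test, adjusted by the Benjamini-Hochberg method. Calls needed an adjusted p below 0.05 and, besides, a log2 fold change beyond 1 in either direction. SOC1b at V3 met the first condition and not the second, and 0 of the 2 tested members were called by edgeR, beside 3.44% of all tested loci. DESeq2 also called 0 of the 2, beside 5.92% of the loci in its fit. An unadjusted edgeR p under 0.05 was reached by 1 of the 2. The share of all loci that reached an unadjusted p under 0.05 was not computed in any contrast. An adjusted p under 0.05 at any fold was reached by 4.40% of loci.

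The adjusted p of SOC1b at V3 stayed under 0.05 in some fits and not in others. It was 0.000297 by DESeq2 at a log2 fold change of 0.93. By edgeR's quasi-likelihood test it was 0.0257 with size factors of the DESeq2 type, 0.0388 without a filter on low counts and 0.0249 with at least 10 counts in every library. With the replicate number as a block, edgeR's quasi-likelihood test gave 0.92 and an adjusted p of 0.0524. In a fit of the 2 V3 groups alone and without the block, the same edgeR test gave 0.88 and an adjusted p of 0.114. With the block, the edgeR fit of these 2 groups gave 0.88 and an adjusted p of 0.0571. Leaving out single libraries gave log2 fold changes of 0.77 to 1.04. With 7 of the 12 libraries left out in turn, the adjusted p of this edgeR test was 0.0211 to 0.0440. It was 0.103 without BR16 V3 replicate 2, 0.128 without BR16 V3 replicate 3, 0.0503 without BR16 R6 replicate 1, 0.0627 without GmNAC81-3 V3 replicate 2, and 0.0584 when replicate 3 of that group was left out. Without BR16 V3 replicate 1 the log2 fold change was 1.04 and SOC1b was called, with an adjusted p of 0.0241 in the same edgeR test.

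With library totals in place of TMM sizes, the log2 fold change of SOC1b at V3 was -0.09, and the median over all tested loci was -1.08. SOC1b lay 0.99 above that median, so that its place relative to the other loci was close to that with TMM sizes. In the GmNAC81-3 V3 libraries, replicates 1, 2 and 3 had 81.9, 184 and 33.4 CPM of GmNAC81, beside 10.2, 9.71 and 13.1 CPM of SOC1b. The order of the 3 libraries by GmNAC81 was the reverse of that by SOC1b, and with 3 libraries no relation was tested.

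SOC1a averaged 14.8 ± 1.21 CPM in GmNAC81-3 V3 and 14.2 ± 1.30 CPM in BR16 V3 (SD, n = 3 each). The log2 fold change was 0.06, with an SE of 0.155 and a 95% interval of -0.28 to 0.40, and the adjusted p was 0.862 by edgeR's quasi-likelihood test. The interval left room for a difference of up to 0.40 on the log2 scale. With library totals SOC1a had a log2 fold change of -0.97, which was 0.11 above the shifted median.

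From V3 to R6, the leaves aged, and the contrast was made within each genotype. In GmNAC81-3, SOC1b averaged 5.48 ± 0.296 CPM at R6 and 10.99 ± 1.81 CPM at V3 (SD, n = 3 each). SOC1b fell, with a log2 fold change of -1.003, an SE of 0.194 and a 95% interval of -1.43 to -0.58. Its adjusted p was 0.00151 by edgeR's quasi-likelihood test, adjusted by the Benjamini-Hochberg method. It was the 1 called member of 2 tested, where 36.5% of all tested loci were called and 20.1% were called lower, so that the count by itself was near the background. The contrast shares the GmNAC81-3 V3 libraries with the genotype contrast at V3, so that these 2 results of SOC1b are not independent.

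The SOC1b call stood at the limit of the fold. Its log2 fold change was -0.96 without a filter on low counts and -0.99 with at least 10 counts in every library, which ended the call, although the adjusted p by edgeR's quasi-likelihood test was 0.00261 and 0.00134. The call was also lost without BR16 V3 replicate 1, 2 or 3, at -0.995, -0.997 and -0.992, and without BR16 R6 replicate 1, 2 or 3, at -0.99, -0.98 and -0.99. It was lost without GmNAC81-3 V3 replicate 3, at -0.85, and without GmNAC81-3 R6 replicate 3, at -0.95. The adjusted p of the edgeR test was at most 0.00889 when any 1 library was left out. With library totals the log2 fold change was 0.02, beside a median over all loci of 1.07, a difference of -1.05 between SOC1b and that median.

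SOC1a in GmNAC81-3 averaged 11.1 ± 1.32 CPM at R6 and 14.8 ± 1.21 CPM at V3 (SD, n = 3 each). The log2 fold change was -0.41, with an SE of 0.155 and a 95% interval of -0.75 to -0.07, and the adjusted p was 0.0491 by edgeR's quasi-likelihood test. SOC1a thus met the limit of the adjusted p, as 45.7% of all tested loci did at any fold, and was not called because it did not reach the limit of fold. With the replicate number as a block its adjusted p in the edgeR test was 0.0663. It was lower in all 3 libraries, as the groups did not overlap for 52.2% of all tested loci. The adjusted p of this edgeR test passed 0.05 when any library other than GmNAC81-3 V3 replicate 1 was left out, and it was 0.182 without GmNAC81-3 R6 replicate 2. With library totals the log2 fold change was 0.61, and the difference from the shifted median was -0.46.

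In BR16, SOC1a averaged 10.8 ± 0.390 CPM at R6 and 14.2 ± 1.30 CPM at V3 (SD, n = 3 each). The log2 fold change was -0.40, with an SE of 0.155 and a 95% interval of -0.74 to -0.06. The adjusted p was 0.0558 by edgeR's quasi-likelihood test, and DESeq2 gave 0.0129 at the same log2 fold change. SOC1a was lower in all 3 R6 libraries, where 60.2% of all tested loci had groups that did not overlap. Of the 2 tested members edgeR and DESeq2 each called 0 in BR16. There, edgeR called 34.7% of all tested loci and DESeq2 called 28.5% of the loci in its fit. SOC1a alone had an unadjusted edgeR p under 0.05.

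SOC1b in BR16 averaged 5.56 ± 1.02 CPM at R6 and 5.84 ± 0.877 CPM at V3 (SD, n = 3 each). The log2 fold change was -0.07, with an SE of 0.192 and a 95% interval of -0.49 to 0.35, and the adjusted p was 0.790 by edgeR's quasi-likelihood test. The libraries of the stages overlapped. The sign turned when single libraries were left out, over a range of -0.16 to 0.07.

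The stage effects of the genotypes were compared in 1 test. For SOC1b, the stage effect in GmNAC81-3 minus that in BR16 was -0.93 on the log2 scale, with an SE of 0.272 and a 95% interval of -1.53 to -0.34. Its unadjusted p was 0.00531 and its adjusted p was 0.202 by edgeR's quasi-likelihood test, adjusted by the Benjamini-Hochberg method, beside 0.0437 by DESeq2. The difference between the stage effects was called for 0 of the 2 members by either tool. This stood beside 0.0710% of all tested loci in edgeR and 1.95% of the loci in the DESeq2 fit. SOC1b alone had an unadjusted edgeR p under 0.05. For SOC1a the difference was -0.01, with an SE of 0.219, a 95% interval of -0.49 to 0.47 and an adjusted p of 0.994 by the same edgeR test. The stage effects of SOC1a were close in the genotypes, at -0.41 in GmNAC81-3 and -0.40 in BR16, but the interval reached 0.49 below 0.

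At R6, neither SOC1 gene differed between the genotypes beyond the spread of the libraries. SOC1a averaged 11.1 ± 1.32 CPM in GmNAC81-3 R6 and 10.8 ± 0.390 CPM in BR16 R6 (SD, n = 3 each), which gave a log2 fold change of 0.04 with a 95% interval of -0.29 to 0.38. SOC1b averaged 5.48 ± 0.296 CPM in GmNAC81-3 R6 and 5.56 ± 1.02 CPM in BR16 R6 (SD, n = 3 each), which gave a log2 fold change of -0.02 with a 95% interval of -0.44 to 0.40. The adjusted p by edgeR's quasi-likelihood test was 0.999 for SOC1a and 1 for SOC1b. Of the 2 tested members edgeR and DESeq2 each called 0 at R6. This stood beside 0.0989% of all tested loci in edgeR and 0.401% of the loci in the DESeq2 fit. An unadjusted edgeR p under 0.05 was reached by 0 of the 2.

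**Figure D3:**
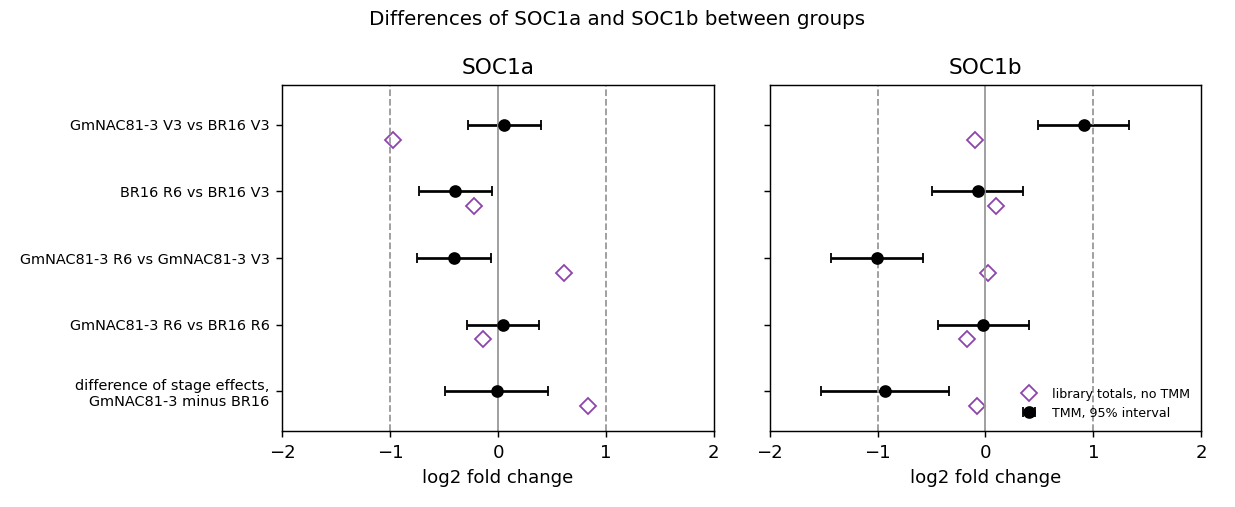
Log2 fold changes of SOC1a (left) and SOC1b (right) in 5 contrasts (horizontal axis), as filled points with 95% intervals for TMM library sizes and as open diamonds for library totals. Dashed lines mark the limits of -1 and 1, which SOC1b reaches only between GmNAC81-3 R6 and GmNAC81-3 V3 at -1.003, and the diamonds of the 3 contrasts with GmNAC81-3 V3 lie away from the points.

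Ordered by level with TMM sizes, SOC1a was highest in GmNAC81-3 V3, followed by BR16 V3, GmNAC81-3 R6 and BR16 R6. The neighbours of 1 stage overlapped, and the step lay between the stages. SOC1b was highest in GmNAC81-3 V3, followed by BR16 V3, BR16 R6 and GmNAC81-3 R6. The last 3 groups of SOC1b did not differ beyond their spread. With library totals GmNAC81-3 V3 came last for both genes. SOC1a then averaged 8.45 CPM in GmNAC81-3 V3 and 16.6 CPM in BR16 V3, and 12.9 CPM in GmNAC81-3 R6 and 14.2 CPM in BR16 R6. SOC1b averaged 6.35 CPM in GmNAC81-3 V3 and 6.77 CPM in BR16 V3, and 6.45 CPM in GmNAC81-3 R6 and 7.26 CPM in BR16 R6.

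The share of each copy in the SOC1 counts was computed within a library and does not depend on the scaling. SOC1a held 56.9%, 60.7% and 54.9% of the SOC1 counts in GmNAC81-3 V3, against 67.9%, 70.1% and 74.6% in BR16 V3. It held 67.0%, 63.0% and 70.5% in GmNAC81-3 R6, against 65.4%, 63.1% and 70.0% in BR16 R6. SOC1a held the larger share in every library, but counts were not divided by gene length, so the share does not rank the 2 copies by transcripts.

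The mean share of SOC1a was 57.5 ± 2.96% in GmNAC81-3 V3 and 70.9 ± 3.44% in BR16 V3 (SD, n = 3 each), a difference of -13.4 percentage points. The exact two-sided permutation test, run without pairing by replicate number, gave p = 0.1, the smallest that 3 against 3 libraries allow. It was 0.2 after Benjamini-Hochberg adjustment over 4 comparisons. Between GmNAC81-3 R6 (66.8 ± 3.72%) and GmNAC81-3 V3 the difference was 9.35 percentage points, with the same exact permutation p of 0.1 and an adjusted value of 0.2. In both comparisons the libraries did not overlap. Between BR16 R6 (66.2 ± 3.497%) and BR16 V3 it was -4.69 points, with an exact permutation p of 0.2 and an adjusted value of 0.267, and between the genotypes at R6 it was 0.655 points, with 0.8 for both. The share of SOC1b was thus 42.5% in GmNAC81-3 V3 and 29.1% to 33.8% in the means of the other groups.

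**Figure D4:**
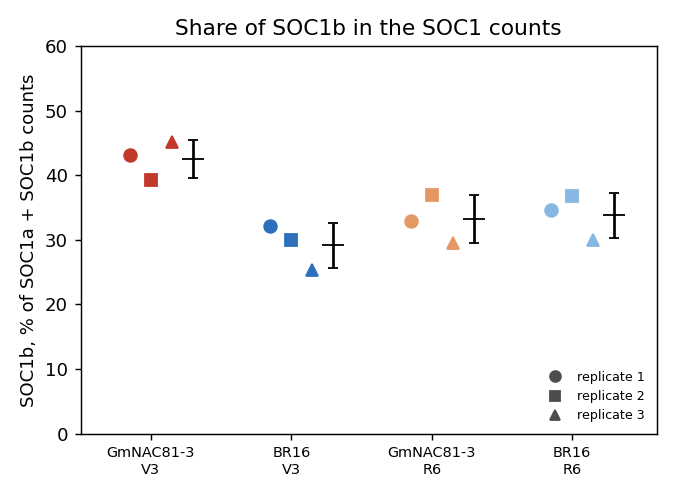
Share of SOC1b in the summed counts of SOC1a and SOC1b in each leaf library (vertical axis, percent), by group, with 1 point per library and the group mean and SD beside it (n = 3). The GmNAC81-3 V3 libraries lie at 39.3% to 45.1% and the other 9 libraries at 25.4% to 37.0%.

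All 4 transcript models of SOC1b had larger means in GmNAC81-3 V3 than in BR16 V3. Model 1 averaged 4.29 ± 1.36 CPM in GmNAC81-3 V3 and 1.97 ± 0.252 CPM in BR16 V3 (SD, n = 3 each), and model 2 averaged 4.14 ± 0.796 CPM in GmNAC81-3 V3 and 2.40 ± 0.584 CPM in BR16 V3. Model 3 averaged 1.10 ± 0.194 CPM in GmNAC81-3 V3 and 0.637 ± 0.0968 CPM in BR16 V3, and model 4 averaged 1.46 ± 0.603 CPM in GmNAC81-3 V3 and 0.829 ± 0.0814 CPM in BR16 V3. The log2 fold changes of models 1 to 4 were 1.10, 0.77, 0.78 and 0.81. Model 1 was called, with an adjusted p of 0.0326 by edgeR's quasi-likelihood test over all models, and models 2 to 4 had adjusted p of 0.110 to 0.158 in the same test. Reads of overlapping models can be assigned to either, so the models are not independent measurements.

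The shares of the models within each locus are given without a test. Model 1 held 38.6 ± 6.82% of the SOC1b counts in GmNAC81-3 V3 and 34.0 ± 4.22% in BR16 V3, and 39.9 ± 5.94% in GmNAC81-3 R6 and 38.6 ± 3.70% in BR16 R6 (SD, n = 3 each). Model 1 of SOC1a held 59.7 ± 0.282% of the SOC1a counts in GmNAC81-3 V3 and 61.8 ± 1.03% in BR16 V3, and 63.6 ± 1.43% in GmNAC81-3 R6 and 64.9 ± 1.84% in BR16 R6.

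Over the 12 libraries, SOC1a and SOC1b correlated across libraries with a Pearson r of 0.62 of log2 CPM, given as a description since the libraries fall into 4 groups. By this measure SOC1b ranked 9663 among the 39442 loci compared with SOC1a, so that many other loci were more like SOC1a. The loci most like SOC1a were Glyma.11G007600 (0.988), Glyma.02G217000 (0.962) and Glyma.07G054800 (0.962). Those most like SOC1b were Glyma.18G241300 (0.967), Glyma.16G207700 (0.944) and Glyma.09G251200 (0.939). They were the highest of 39442 loci compared, where the median r was -0.06 for SOC1a and -0.08 for SOC1b, and no gene name was paired with these identifiers here.

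A list of 13 further loci, chosen as candidate partners and regulators of flowering, was set beside the members. Earlier results of these data were known when the list was chosen. No gene name was paired with their identifiers in the sources used here, so they are given by number. Of the 13 loci, 7 were tested. Between GmNAC81-3 V3 and BR16 V3, 0 of the 7 were called by edgeR, beside 3.44% of all tested loci. Their median log2 fold change was 0.73, beside -0.04 over all tested loci. An unadjusted edgeR p under 0.05 was reached by 2, and the share of all loci that reached it was not computed.

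Between R6 and V3, calls were made in both directions within the list. In GmNAC81-3, 3 of 7 were called higher, beside 16.5% of all tested loci, and 2 of 7 lower, beside 20.1%, with a median of 0.82 beside 0.03 over all loci. In BR16, 4 of 7 were called higher, beside 15.1%, and 1 lower, beside 19.6%, with a median of 1.30 beside -0.01. At R6, edgeR called 0 of the 7 between GmNAC81-3 and BR16, beside 0.0989% of all tested loci, with a median of 0.15 and 0 unadjusted p under 0.05. It also called 0 in the difference of stage effects, beside 0.0710% of all tested loci. The median there was -0.59 beside 0.02, with 1 unadjusted p under 0.05.

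Glyma.06G205800 had 204, 260 and 163 counts in GmNAC81-3 R6, against 6, 4 and 2 counts in GmNAC81-3 V3. It had 284, 200 and 227 counts in BR16 R6, against 4, 0 and 4 counts in BR16 V3. It rose with a log2 fold change of 4.32 in GmNAC81-3 and of 5.91 in BR16, where 1 V3 library was at 0. Its V3 counts were 0 to 6, so that the size of its rise is uncertain and it passed the filter on low counts only through R6 libraries. Glyma.04G159300 averaged 4.87 ± 0.618 CPM in GmNAC81-3 R6 and 0.240 ± 0.162 CPM in GmNAC81-3 V3 (SD, n = 3 each), and 4.43 ± 0.149 CPM in BR16 R6 and 0.211 ± 0.0416 CPM in BR16 V3. It rose by 4.33 in GmNAC81-3 and by 4.37 in BR16 on the log2 scale, with adjusted p of 3.81e-06 and 3.13e-06 by edgeR's quasi-likelihood test.

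Among the loci that fell, Glyma.06G040400 averaged 5.58 ± 0.427 CPM in BR16 R6 and 18.01 ± 3.44 CPM in BR16 V3 (SD, n = 3 each), which gave a log2 fold change of -1.69 with an adjusted p of 0.0310 by edgeR's quasi-likelihood test. In GmNAC81-3 it was also called lower, at -2.11 with an adjusted p of 0.0113 by the same edgeR test, but the stages overlapped. It had 5.515, 30.1 and 53.9 CPM in GmNAC81-3 V3, against 4.80, 8.82 and 7.14 CPM in GmNAC81-3 R6. Glyma.18G273600 had 0, 2 and 4 counts in GmNAC81-3 R6, against 32, 4 and 10 counts in GmNAC81-3 V3, a log2 fold change of -4.16 with an adjusted p of 0.0116 by the same edgeR test. Its R6 counts were close to the floor of 3 counts, so that the size of its fall is uncertain. They were 0 to 4 in both genotypes, so that the locus passed the filter on low counts only through V3 libraries. For this reason the adjusted p is not separate support for the fall.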

How the data were processed

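Leaf RNA was measured in 12 libraries, 3 of each group. The values are raw counts per transcript model, as the authors deposited them. According to the study's methods, the authors prepared stranded libraries, sequenced 100 bp paired-end reads, trimmed them with Sickle, mapped them to Wm82.a2.v1 with Bowtie 2 and counted them with Rsubread, whereas the submitters' processing notes name HISAT2 2.1.0 and featureCounts. Reads shared by near copies may be split or lost, depending on settings not given in the sources used here.

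Counts were summed per locus and analysed in R 4.3.3 with edgeR 4.0.16 (filterByExpr, TMM, quasi-likelihood test), leaving 39443 loci, in 1 fit of all 4 groups. P-values were adjusted over all tested loci with the Benjamini-Hochberg method. DESeq2 1.42.0 was an alternative. The fit was checked on simulated counts in which 200 loci were changed. Alternatives in scaling, filter, block, transcript model and left-out libraries were run. The use of library totals in the fits and the removal of both V3 replicate 1 libraries were chosen after seeing the data. The members and the lists were chosen with earlier results of these data known.

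The named genes were the 6 members, the 3 loci most correlated with each tested member, and, of the 13 list loci, the 2 highest and 2 lowest called without overlap. RCA loci were identified from the study's supplement after the planned leaf and flower markers could not be looked up. The labels do not say that the replicate numbers mark a shared batch. Same-numbered V3 libraries deviated together (r of 0.404, 0.221 and 0.129 for replicates 1, 2 and 3), so they may be paired. The V3 values come from the fit without a block, and the fit with the block was an alternative. In the other contrasts the same-numbered libraries did not all deviate together.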

Additional observations from a re-analysis of the deposited data

How the results depend on the processing

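With an adjusted p under 0.05 and no limit of fold change, 1 of 2 members (SOC1b) was called in GmNAC81-3 V3 against BR16 V3 and 2 in GmNAC81-3 R6 against GmNAC81-3 V3. The count at V3 was also 1 per transcript model and without both V3 replicate 1 libraries, and 0 to 1 with single libraries left out. The count of 1 in GmNAC81-3 R6 against GmNAC81-3 V3 was 0 with library totals, without an expression filter and with at least 10 counts in every library, and 0 to 1 with single libraries left out.

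Library totals, which moved the median of all loci, turned the sign of several log2 fold changes. At V3, SOC1a was at -0.97 and SOC1b at -0.0932. SOC1b was at 0.10 in BR16 R6 against BR16 V3. In GmNAC81-3 R6 against GmNAC81-3 V3, SOC1a was at 0.61 and SOC1b at 0.0230. At R6 SOC1a was at -0.14 between the genotypes, and its difference of stage effects was 0.83. The cause of the unequal totals was not tested.

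Other turned signs concerned changes near 0, and their cause was not tested. Per transcript model, SOC1a model 1 was at -0.0110 at V3 and at 0.0294 in the difference of stage effects. SOC1b models 1 and 3 were at 0.0878 and 0.11 in BR16 R6 against BR16 V3, and models 1 and 4 at 0.0405 and 0.0778 between the genotypes at R6. The SOC1a difference of stage effects was 0.0182 without a filter. SOC1b in BR16 R6 against BR16 V3 was at 0.0834 without both V3 replicate 1 libraries. With single libraries left out, SOC1a ran from -0.0186 to 0.11 at V3, from -0.0295 to 0.14 at R6 and from -0.0813 to 0.0838 in the difference of stage effects. SOC1b ran from -0.16 to 0.0749 in BR16 R6 against BR16 V3 and from -0.16 to 0.0829 between the genotypes at R6.

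With the replicate block, SOC1b at V3 had a log2 fold change of 0.92 and an adjusted p of 0.0524 by edgeR's quasi-likelihood test, and SOC1a in GmNAC81-3 R6 against GmNAC81-3 V3 had -0.41 and 0.0663 by the same edgeR test. The block changed no call of the members, of which it called SOC1b alone, in GmNAC81-3 R6 against GmNAC81-3 V3. From the first transcript model alone, the share of SOC1a was 67.8% in GmNAC81-3 V3, 81.5% in BR16 V3, 76.4% in GmNAC81-3 R6 and 76.8% in BR16 R6. In libraries of 42.8 to 78.0 M counts, 5 of the 48 AP1 counts were above 3. The same libraries held 369 to 1244 counts of SOC1a and 239 to 658 counts of SOC1b. Whether deeper sequencing would separate the groups for AP1 was not tested.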
